A study of Mus musculus with 15 samples.

Results

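The genes described here are Mrgpra2b, Fbp1, Mtus1, Nudt6 and Tnfsf13, 5 of the 17097 genes measured in LSK cells (lineage-negative, Sca-1+, Kit+), a bone marrow fraction enriched for stem and early progenitor cells of the blood. They were selected on their measured values, as strong falls in HOXB4 against GFP cells at 20 weeks among genes that do not encode granule proteins. All probe sets whose single annotated symbol was one of the 5 were taken, which gave 8 of 45141 probe sets. The labels compare marrow cells that carry a retroviral HOXB4-YFP vector with marrow cells that carry a GFP vector without HOXB4, a homeobox transcription factor known for expanding blood stem cells. There were 5 groups of 3 arrays: HOXB4 cells at 6 weeks, HOXB4 and GFP cells at 12 weeks, and HOXB4 and GFP cells at 20 weeks after transplantation. In all groups the donors were female C57Bl/6 mice given 5-fluorouracil, which leaves dividing progenitors depleted, the vectors were of the MSCV type, the recipients were lethally irradiated, and the cells were sorted as fluorescent LSK cells and not cultured. Ages are not given in the sources used here. The sample titles give the last time as 20 weeks and the series text gives 24 weeks, and the titles were followed. The HOXB4 cells at 6 weeks have no GFP cells of the same time beside them, since such a group was not analysed here. The labels do not say whether the 3 arrays of a group came from separate mice, so the p-values reflect no more than the differences among these arrays, and those can be technical.

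The 5 genes belong to different pathways. Mrgpra2b encodes a Mas-related G protein-coupled receptor, a family of cell surface receptors known best from sensory neurons and mast cells. Fbp1 encodes the fructose bisphosphatase that takes the step of gluconeogenesis opposite to phosphofructokinase. Mtus1 encodes microtubule-binding proteins that also bind an angiotensin receptor. Nudt6 encodes a member of the Nudix hydrolases and is transcribed antisense to Fgf2, the gene of a fibroblast growth factor. Tnfsf13 encodes APRIL, a ligand of the tumour necrosis factor family that binds the receptors TACI (Tnfrsf13b) and BCMA (Tnfrsf17) on B-lineage cells and is made by myeloid cells of the marrow.

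The genes lie on 5 chromosomes of the mouse assembly GRCm38.p6. Mrgpra2b spans chr7:47463807-47489582 and lies 11642 bases from its near copy Mrgpra2a at chr7:47426325-47452164. Fbp1 spans chr13:62864753-62888298 and Mtus1 spans chr8:40990912-41133983. Nudt6 spans chr3:37404982-37420242 on the minus strand and shares 5125 bases with Fgf2, which runs on the plus strand at chr3:37348477-37410106. Tnfsf13 spans chr11:69682577-69685554, with 685 bases between it and Tnfsf12, the gene of the related ligand TWEAK.

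Because all 5 genes were picked for a fall in the same comparison, the promoters of 4 of them are shown, 5′ to 3′ on the strand of the gene, which is the minus strand for all 4. Each runs from 250 bases before to 50 bases after the start that the RefSeq promoter table of GRCm38.p6 uses. That start is the end of the span given above for Mrgpra2b and Tnfsf13, and it lies 16 bases inside the span for Fbp1 and 646 bases inside it for Nudt6. Mtus1 is the member without an entry. Capitals mark every match, on either strand, to 1 of 5 searched motifs: C/EBP as TTNNGNAA, PU.1 as GAGGAAGT, GFI1 as AATCANNGC, RUNX as TGTGGT and HOX-PBX as TGATTNAT. The windows are chr7:47489533-47489832 for Mrgpra2b, chr13:62888233-62888532 for Fbp1, chr3:37419547-37419846 for Nudt6 and chr11:69685505-69685804 for Tnfsf13.
Mrgpra2b: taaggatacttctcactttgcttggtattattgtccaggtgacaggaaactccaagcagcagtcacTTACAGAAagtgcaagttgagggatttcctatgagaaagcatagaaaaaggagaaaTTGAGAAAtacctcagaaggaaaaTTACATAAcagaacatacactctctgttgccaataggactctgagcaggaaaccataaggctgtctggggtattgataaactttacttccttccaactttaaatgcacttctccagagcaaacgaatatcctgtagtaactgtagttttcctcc
Fbp1: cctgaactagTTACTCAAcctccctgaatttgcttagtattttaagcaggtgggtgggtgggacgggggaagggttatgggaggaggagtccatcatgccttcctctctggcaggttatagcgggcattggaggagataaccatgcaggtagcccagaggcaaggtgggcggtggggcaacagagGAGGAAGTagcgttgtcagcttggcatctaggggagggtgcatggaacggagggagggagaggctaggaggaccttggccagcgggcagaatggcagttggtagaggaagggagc
Nudt6: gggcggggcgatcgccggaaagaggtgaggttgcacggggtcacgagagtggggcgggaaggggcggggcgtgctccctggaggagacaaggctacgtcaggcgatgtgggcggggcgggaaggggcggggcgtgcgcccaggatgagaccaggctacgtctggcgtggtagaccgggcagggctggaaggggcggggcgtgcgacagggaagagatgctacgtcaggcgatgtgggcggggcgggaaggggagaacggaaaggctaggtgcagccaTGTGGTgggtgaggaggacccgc
Tnfsf13: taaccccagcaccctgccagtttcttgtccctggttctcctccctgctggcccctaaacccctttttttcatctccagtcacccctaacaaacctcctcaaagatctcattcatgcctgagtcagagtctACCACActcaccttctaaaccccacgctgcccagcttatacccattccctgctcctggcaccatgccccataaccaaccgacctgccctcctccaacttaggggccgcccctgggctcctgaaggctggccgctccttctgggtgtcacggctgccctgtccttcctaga

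The Mrgpra2b promoter held 3 C/EBP matches, which start at -184, -128 and -104 relative to the start in that table, and the Fbp1 promoter held 1 at -240 and a PU.1 match at -65. Of all 32851 promoters of that length in the table, 40.7% held the C/EBP letters and 3.2% the PU.1 letters. The RUNX letters, in 16.8% of promoters, occurred at position 27 after the start in Nudt6 and at -120 on the opposite strand in Tnfsf13. The GFI1 letters, in 3.28% of promoters, and the HOX-PBX letters, in 3.22%, were not in these 4 windows. GC content was 39.7% for Mrgpra2b, 57.3% for Fbp1, 70.3% for Nudt6 and 57.7% for Tnfsf13. The Mrgpra2b window was identical to that of Mrgpra2a at 300 of 300 bases, and no motif occurred in all 4 promoters. These matches describe the letters only.

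The values are log2 signals, so a difference of 1 is a 2-fold difference in signal, and levels are compared only within a probe set. The array medians lay between 5.247 and 5.397, and each array correlated with the others of its own group at 0.969 to 0.995. No detection calls were used, so a low value may be background. One array stood apart: on HOXB4 6-week replicate 1 the Gapdh control probe sets at the 3′ end exceeded those at the 5′ end by 3.76, against 0.81 to 2.02 on the other 14 arrays. Of the markers of the sorted fraction, Kit lay between 7.89 and 8.79 on the 15 arrays and Gata2, a transcription factor of stem and progenitor cells, between 8.54 and 10.75. Further markers of this fraction were Cd34 (8.95 to 10.24), Flt3 (7.40 to 9.49) and Hlf (7.05 to 8.29). Slamf1 lay between 4.84 and 8.32 and Procr between 4.87 and 6.65. Ly6a, which encodes Sca-1, was not analysed here. Of the antigens used for depletion, Cd3e lay between 3.82 and 5.07 and Itgam, the myeloid antigen CD11b, between 3.88 and 6.76. Others on that list were Cd4 (5.49 to 6.12), Cd8a (5.25 to 5.75) and Ptprc (9.42 to 10.48). These RNA signals do not show which antigens were on the cell surface.

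Mrgpra2b, the receptor gene, had the largest fall of the 17097 genes at 20 weeks. HOXB4 cells at 6 weeks gave log2 values of 5.46, 6.46 and 6.19. At 12 weeks the values were 4.79, 5.58 and 5.32 in HOXB4 cells, against 6.80, 6.74 and 6.96 in GFP cells. At 20 weeks they were 4.65, 3.99 and 4.58 in HOXB4 cells, against 9.58, 9.73 and 8.49 in GFP cells. HOXB4 and GFP arrays did not overlap at either time, and the 3 HOXB4 arrays of 20 weeks lay below all other arrays. The group means were, from low to high, 4.40 ± 0.36 in HOXB4 cells at 20 weeks, 5.23 ± 0.40 in HOXB4 cells at 12 weeks, 6.04 ± 0.52 in HOXB4 cells at 6 weeks, 6.83 ± 0.11 in GFP cells at 12 weeks and 9.26 ± 0.68 in GFP cells at 20 weeks (SD, n = 3 each). Of neighbours in this order, the arrays of HOXB4 cells at 12 and 6 weeks overlapped.

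Fbp1, the gluconeogenic enzyme, followed the same order of groups. HOXB4 cells at 6 weeks gave 4.48, 4.65 and 3.87. At 12 weeks the values were 3.94, 4.13 and 3.91 in HOXB4 cells, against 5.30, 5.70 and 5.82 in GFP cells. At 20 weeks they were 3.68, 3.24 and 4.27 in HOXB4 cells, against 8.41, 8.73 and 7.16 in GFP cells. All 9 HOXB4 arrays lay below all 6 GFP arrays, and the HOXB4 arrays of neighbouring times overlapped. The 3 HOXB4 means were 3.73 ± 0.52 at 20 weeks, 3.995 ± 0.12 at 12 weeks and 4.33 ± 0.41 at 6 weeks, against GFP means of 5.61 ± 0.27 at 12 weeks and 8.10 ± 0.83 at 20 weeks (SD, n = 3 each).

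Mtus1, the microtubule-binding member, was high on the GFP arrays of 20 weeks and low elsewhere. In its tested probe set HOXB4 cells at 6 weeks gave 4.87, 5.22 and 4.66. At 12 weeks the values were 4.39, 4.18 and 4.68 in HOXB4 cells, against 5.06, 5.35 and 5.23 in GFP cells. At 20 weeks they were 4.004, 3.96 and 3.73 in HOXB4 cells, against 8.25, 8.38 and 6.93 in GFP cells. The HOXB4 cells of 6 weeks overlapped with the GFP cells of 12 weeks and with the HOXB4 cells of 12 weeks, whereas the HOXB4 arrays of 20 weeks lay below all others. At 20 weeks a further probe set lay at 2.81 to 2.99 in HOXB4 cells, against 5.07 to 5.90 in GFP cells. The remaining one lay at 3.82 to 4.49 in HOXB4 cells of 20 weeks, against 6.497 to 7.70 in GFP cells of 20 weeks. In both, too, the GFP arrays of 20 weeks were the highest and did not overlap with any other group. The name of the tested probe set marks it as one that can match several transcripts.

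Nudt6, the Nudix hydrolase, stood out in one group. HOXB4 cells at 6 weeks gave 6.13, 5.32 and 5.69. At 12 weeks the values were 5.83, 5.32 and 5.47 in HOXB4 cells, against 6.09, 5.79 and 5.90 in GFP cells. At 20 weeks they were 5.71, 6.41 and 5.32 in HOXB4 cells, against 10.21, 10.20 and 8.89 in GFP cells. The first 4 of these groups overlapped with each other, with means from 5.54 ± 0.26 in HOXB4 cells at 12 weeks to 5.93 ± 0.15 in GFP cells at 12 weeks, and GFP cells at 20 weeks averaged 9.77 ± 0.76 (SD, n = 3 each). The other Nudt6 probe set had the same shape, with 5.60, 6.15 and 5.89 in HOXB4 cells at 20 weeks, against 9.82, 9.86 and 8.43 in GFP cells.

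Tnfsf13, the gene of APRIL, was high in both GFP groups. HOXB4 cells at 6 weeks gave 5.40, 6.46 and 5.16. At 12 weeks the values were 5.89, 5.67 and 5.78 in HOXB4 cells, against 7.97, 7.34 and 8.16 in GFP cells. At 20 weeks they were 5.85, 5.79 and 5.83 in HOXB4 cells, against 9.30, 9.65 and 7.89 in GFP cells. The GFP arrays of 12 and 20 weeks overlapped, as did the HOXB4 arrays of all 3 times, and all 9 HOXB4 arrays lay below the 6 GFP arrays. The means were 5.67 ± 0.69, 5.78 ± 0.11 and 5.83 ± 0.03 in HOXB4 cells at 6, 12 and 20 weeks, against 7.82 ± 0.43 and 8.95 ± 0.93 in GFP cells at 12 and 20 weeks (SD, n = 3 each).

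**Figure D1:**
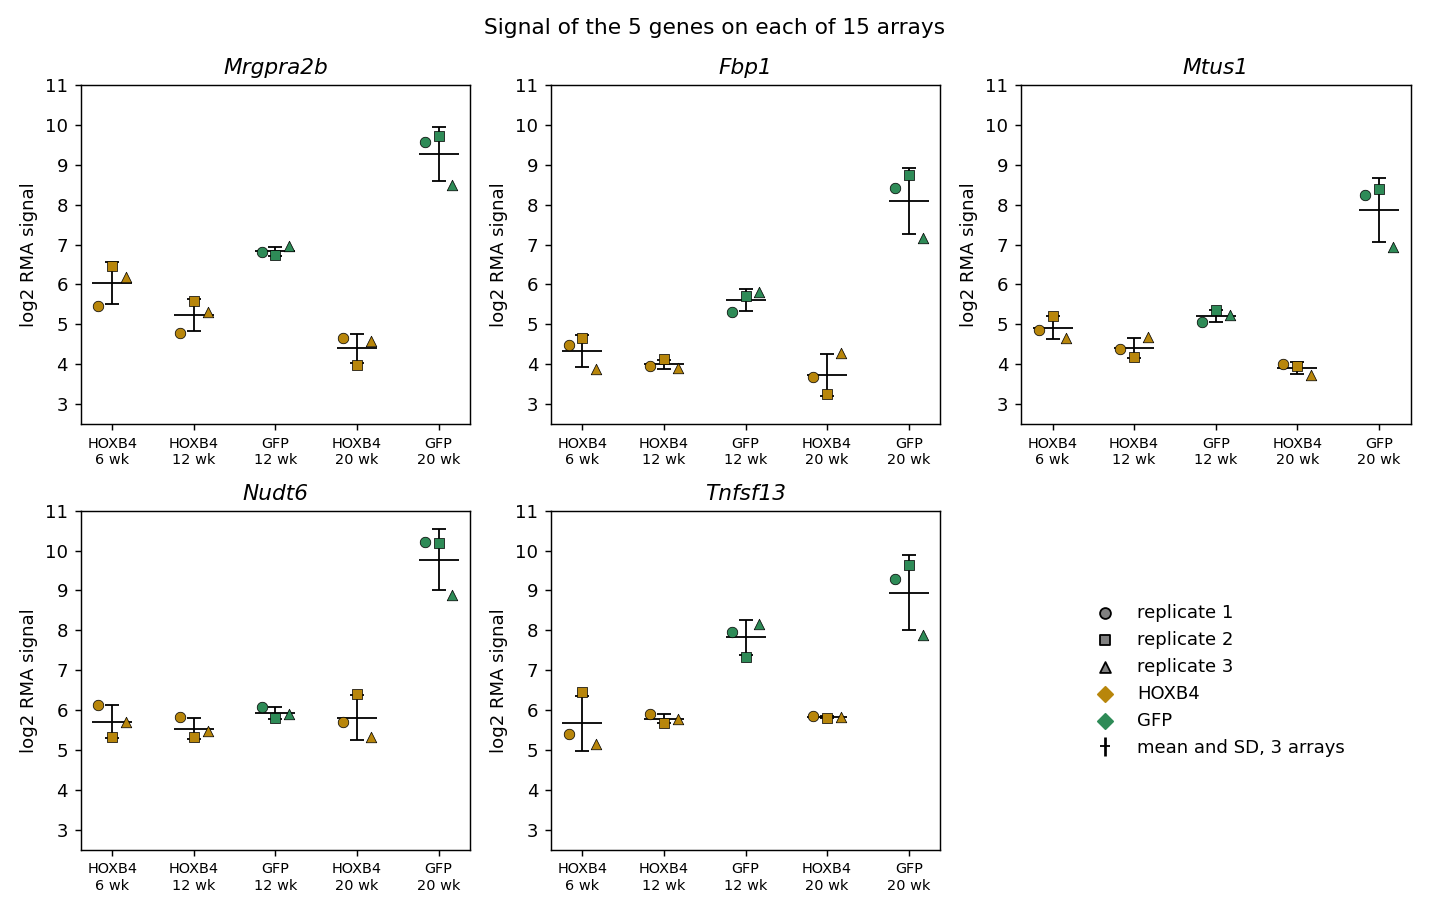
Log2 RMA signal (vertical axes, same scale in every panel) of the tested probe set of each gene on the 15 arrays, by group (horizontal axes); marker shapes are replicates, and the lines give the mean and SD of 3 arrays. GFP cells at 20 weeks have the highest mean in each panel, with replicate 3 the lowest of its group, and the other group means of Nudt6 run from 5.54 to 5.93. The genes were chosen by their difference between HOXB4 and GFP cells at 20 weeks.

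The 20-week differences chose the genes, so they are given as a description, with the standard error (SE) of the model and no test. HOXB4 minus GFP was -4.86 ± 0.32 for Mrgpra2b, a signal 29.1-fold lower in HOXB4 cells. It was -4.37 ± 0.34 for Fbp1 (20.6-fold lower), -3.96 ± 0.29 for Mtus1 (15.5-fold lower), -3.95 ± 0.33 for Nudt6 (15.5-fold lower) and -3.12 ± 0.38 for Tnfsf13 (8.69-fold lower). The further Mtus1 probe sets gave -2.51 and -3.20 and the further Nudt6 probe set -3.49. Among all 17097 genes ordered from the largest fall, the 5 stood at places 1, 3, 8, 9 and 24. The selection named no threshold; beside its members in this order stood Chil3 (-4.57), Chil4 (-4.36), Sgms2 (-4.01) and Prtn3 (-3.81), and Alas1 (-3.16) and Ear3 (-3.03) stood on either side of Tnfsf13. By limma with Benjamini-Hochberg adjustment over all genes, 885 genes (5.18%) were called lower at 20 weeks at an adjusted p under 0.05. In bulk samples of sorted cells, fewer cells of a type and less RNA per cell cannot be told apart.

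GFP 20-week replicate 3 was the lowest of its group for all 5 genes. It lay below the mean of the other pair of arrays by 1.16 for Mrgpra2b, 1.41 for Fbp1, 1.38 for Mtus1, 1.32 for Nudt6 and 1.59 for Tnfsf13. Over all genes the median shortfall of that array was 0.03, and 49 genes (0.287%) fell short by 1.16 or more. That cutoff is the smallest shortfall of the 5 genes, so all 5 are in the count. Genes equally high in GFP cells at 20 weeks were not compared separately. The mean of the 15 measured granulocyte-monocyte progenitor markers was 10.07 on that array, against 10.61 and 10.73 on the other GFP arrays of 20 weeks. The same array had the highest mean of its group for B cell markers (8.32, against 7.27 and 6.41), dendritic markers (8.07, against 7.10 and 6.74), erythroid markers (7.82, against 7.35 and 6.54) and eosinophil markers (7.36, against 6.92 and 6.45). It was also highest for the antigens used for depletion (6.67, against 6.56 and 6.27) and T and NK markers (5.90, against 5.54 and 5.22). The same held for LSK markers (7.02, against 6.90 and 6.89) and mast cell and basophil markers (5.62, against 5.49 and 5.50). Megakaryocyte markers averaged 5.48 on it, against 5.77 and 5.46. Mature neutrophil markers averaged 8.50 on it, against 8.59 and 8.60, and monocyte and macrophage markers 7.81, against 7.86 and 7.86. The part of these cells in the shortfall was not tested. Without that array the 20-week differences were -5.25 for Mrgpra2b, -4.84 for Fbp1, -4.42 for Mtus1, -4.39 for Nudt6 and -3.65 for Tnfsf13.

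The 12-week arrays were not used to choose Mrgpra2b, Fbp1, Mtus1 and Nudt6, and the difference between HOXB4 and GFP cells was tested there for these 4. Mrgpra2b and Fbp1 fell in HOXB4 cells, and Mtus1 and Nudt6 did not pass the test. Of all genes, 376 (2.2%) were called lower at 12 weeks and 688 (4.02%) in either direction. The balance of all calls depended on the scaling, with 312 higher and 376 lower as deposited, 267 higher and 227 lower after further quantile normalisation, and 282 higher and 490 lower after centring each array on its median. The median difference was -1.20 over the 4 genes, against -0.02 over all 17097 genes.

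HOXB4 minus GFP at 12 weeks was -1.60 ± 0.32 for Mrgpra2b (95% interval -2.28 to -0.92), a signal 3.04-fold lower, with a limma adjusted p of 0.0131. For Fbp1 it was -1.61 ± 0.34 (95% interval -2.34 to -0.88), a signal 3.05-fold lower, with a limma adjusted p of 0.0186. The HOXB4 and GFP arrays of 12 weeks did not overlap for either gene. Both calls depended on which arrays were fitted. Without 1 array the adjusted p of Mrgpra2b lay between 0.0317 and 0.0688, and it missed 0.05 without HOXB4 12-week replicate 1 (0.0688) or without GFP 12-week replicate 1 (0.0544) or 3 (0.0592). That of Fbp1 lay between 0.0469 and 0.0801 and passed only without GFP 12-week replicate 1. The differences themselves stayed between -1.78 and -1.38 for Mrgpra2b and between -1.76 and -1.50 for Fbp1.

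For Mtus1 the 12-week difference was -0.80 ± 0.29 (95% interval -1.41 to -0.18; limma adjusted p = 0.140), and the arrays did not overlap in the tested probe set. It passed the test when only the 12-week arrays were fitted (limma adjusted p = 0.00456) and when arrays were weighted (0.0269). Tested among all probe sets, the further Mtus1 probe sets gave -0.58 ± 0.19 (limma adjusted p = 0.113) and -0.69 ± 0.29 (0.227). For Nudt6 the difference was -0.39 ± 0.33 (95% interval -1.10 to 0.33; limma adjusted p = 0.576), the arrays overlapped, and the other probe set gave 0.23 ± 0.29 (limma adjusted p = 0.731 among all probe sets). Tnfsf13 was already known as a leading fall at 12 weeks from earlier results of these data, so its difference of -2.04 ± 0.38, a signal 4.11-fold lower in HOXB4 cells, is a description only.

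**Figure D2:**
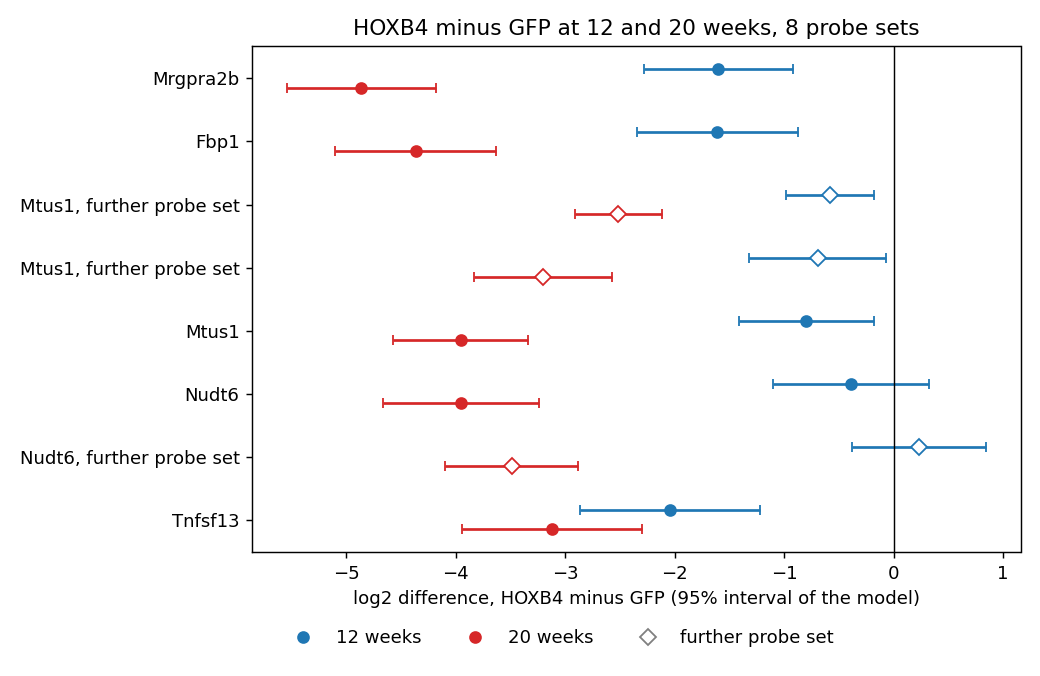
Log2 difference between HOXB4 and GFP cells (horizontal axis, with the model's 95% interval) for the 8 probe sets at 12 weeks (blue) and 20 weeks (red); open diamonds are further probe sets of a gene. Each probe set differs more at 20 than at 12 weeks, from -3.12 to -4.86 in the tested probe sets at 20 weeks. The 20-week difference chose the genes, so its large size beside that of 12 weeks was favoured in advance. Both Nudt6 intervals at 12 weeks include 0.

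The gap between both times came with a change in the GFP cells. These comparisons include the 20-week arrays and are given without a test. GFP cells at 20 minus 12 weeks differed by 2.43 for Mrgpra2b, 2.49 for Fbp1, 2.64 for Mtus1, 3.84 for Nudt6 and 1.12 for Tnfsf13. HOXB4 cells at 20 minus 12 weeks differed by -0.83 for Mrgpra2b, -0.26 for Fbp1, -0.52 for Mtus1, 0.27 for Nudt6 and 0.04 for Tnfsf13. The HOXB4 effect at 20 weeks minus that at 12 weeks was thus -3.26 for Mrgpra2b, -2.76 for Fbp1, -3.16 for Mtus1, -3.57 for Nudt6 and -1.08 for Tnfsf13. In size, the change in GFP cells was larger than that in HOXB4 cells for each of the 5 genes. Choosing genes by a fall at 20 weeks favours those high in GFP cells of that time, so this order was partly built in. A further fall from a low HOXB4 signal, such as the 12-week mean of 3.995 for Fbp1, may also not be seen.

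Within the HOXB4 cells, 12 against 6 weeks was tested for the same 4 genes, and 0 were called by limma, with 1 at an unadjusted p under 0.05, against 268 (1.57%) of all genes called in either direction. HOXB4 cells at 12 minus 6 weeks differed by -0.81 ± 0.32 for Mrgpra2b (95% interval -1.49 to -0.13; limma adjusted p = 0.209), -0.34 ± 0.34 for Fbp1 (0.689), -0.50 ± 0.29 for Mtus1 (0.420) and -0.17 ± 0.33 for Nudt6 (0.852). The median of the 4 was -0.42, against 0.01 over all genes. Without HOXB4 6-week replicate 1, the array with the high Gapdh ratio, the differences were -1.10 for Mrgpra2b (limma adjusted p = 0.116), -0.26 for Fbp1 (0.797), -0.52 for Mtus1 (0.474) and 0.03 for Nudt6 (0.975). Over the longer span, HOXB4 cells at 20 minus 6 weeks differed by -1.63 for Mrgpra2b, -0.60 for Fbp1, -1.02 for Mtus1, 0.10 for Nudt6 and 0.15 for Tnfsf13, as a description.

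Genes of the pathways around the 5 members were given by list, without the members. Of 121 listed genes 92 were measured. At 12 weeks 9 of the 92 were called (9.78%, against 4.02% of all genes), 2 higher and 7 lower in HOXB4 cells. At 20 weeks 11 were called (12%, against 8.95% of all genes), 3 higher and 8 lower. The median difference over the 92 genes was -0.06 at 12 weeks and 0.02 at 20 weeks, against -0.02 and 0.02 over all genes. After further quantile normalisation the 12-week calls were 2 higher and 4 lower. The difference between the HOXB4 effects at 20 and 12 weeks was called by limma for 0 of the 92 genes, with 5 at an unadjusted p under 0.05, against 87 (0.509%) of all genes.

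Around Mrgpra2b, 8 of 20 listed Mas-related receptors were measured. Their differences between HOXB4 and GFP cells ran from -0.12 to 0.16 at 12 weeks and from -0.03 to 0.28 at 20 weeks. By limma 0 were called at either time, with 0 at 12 weeks and 1 at 20 weeks at an unadjusted p under 0.05. Mrgpra2a was not analysed here, and with promoters that share all 300 bases it is a near copy whose signal the Mrgpra2b probe set may include.

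Around Fbp1, 22 of 27 listed genes of gluconeogenesis and the opposing phosphofructokinase step were measured, with medians of -0.08 at 12 weeks and -0.03 at 20 weeks. At 12 weeks 5 fell in HOXB4 cells and 0 rose. Pfkp, a phosphofructokinase and so the enzyme opposite to Fbp1, had 7.23, 7.34 and 7.34 in HOXB4 cells, against 8.03, 7.80 and 8.08 in GFP cells at 12 weeks, without overlap, and 7.37, 7.35 and 7.30 in HOXB4 cells, against 8.29, 8.38 and 8.24 in GFP cells at 20 weeks. Its differences were -0.66 ± 0.12 at 12 weeks (limma adjusted p = 0.00734) and -0.96 ± 0.12 at 20 weeks (0.000142). The others that fell at 12 weeks were the glycolytic enzymes Aldoa (-0.60, limma adjusted p = 0.0101), Tpi1 (-0.55, 0.0196) and Gapdh (-0.46, 0.0234). The fifth was G6pc3 (-0.70, 0.0338), a glucose phosphatase. At 20 weeks Aldoa (-0.85, limma adjusted p = 0.000249), Tpi1 (-0.74, 0.00111), G6pc3 (-0.82, 0.00696) and the glycolytic kinase Pgk1 (-0.64, 0.0481) fell with Pfkp. G6pc3 missed the threshold at 20 weeks when only the groups compared were fitted (0.0878). G6pc3 at 12 weeks and Pgk1 lay outside the naming rule and were named after their values were seen. Aldoa, Tpi1, Gapdh and Pfkp act in glycolysis, and of these all but Pfkp also act in gluconeogenesis. Fbp2, the muscle form of the bisphosphatase, differed by 0.12 at 12 weeks (limma adjusted p = 0.632) and -0.05 at 20 weeks (0.840).

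Around Mtus1, 15 of 20 listed angiotensin and microtubule plus-end genes were measured, with medians of -0.10 at 12 weeks and 0.02 at 20 weeks. Mapre2, an end-binding protein of microtubules, fell at 12 weeks (-0.54 ± 0.12, limma adjusted p = 0.0262) and at 20 weeks (-0.80 ± 0.12, 0.000846). Its values at 20 weeks were 8.27, 8.23 and 8.39 in HOXB4 cells, against 9.15, 9.25 and 8.90 in GFP cells. After further quantile normalisation its 12-week difference missed the threshold (-0.44, limma adjusted p = 0.0684). Ace, the angiotensin-converting enzyme, fell at 20 weeks (-0.81 ± 0.15, limma adjusted p = 0.00368), with 5.88, 5.43 and 5.78 in HOXB4 cells, against 6.46, 6.40 and 6.64 in GFP cells. Mtus2, the paralog of Mtus1, differed by -0.24 at 12 weeks (limma adjusted p = 0.758) and -0.53 at 20 weeks (0.399). Between 12 and 6 weeks in HOXB4 cells Clasp2, a plus-end protein, rose by 0.52 (limma adjusted p = 0.0216), but the mean of its probe sets differed by 0.07 (0.796), and the call was lost after further quantile normalisation (0.0747) and with only the groups compared (0.127).

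Around Nudt6, 24 of 25 listed Nudix genes and genes of the Fgf2 locus were measured, with medians of -0.09 at 12 weeks and -0.02 at 20 weeks. Fgf2, the antisense partner of Nudt6, differed by -0.08 at 12 weeks (limma adjusted p = 0.867) and -0.36 at 20 weeks (0.302). Its values at 20 weeks were 3.78, 3.62 and 3.70 in HOXB4 cells, against 3.75, 4.66 and 3.77 in GFP cells, which overlapped. Spata5, the neighbour on the other side, which overlaps the Nudt6 span on the opposite strand, is named for its position. Its tested probe set differed by -0.48 ± 0.20 at 12 weeks (limma adjusted p = 0.210 among all probe sets) and 0.20 ± 0.20 at 20 weeks (0.623). The further Spata5 probe sets went both ways at 12 weeks, with -0.30 (limma adjusted p = 0.175), -0.75 (0.0547) and 0.60 (0.185). At 20 weeks they gave 0.23, 0.16 and 0.05. Nudt5, a hydrolase of ADP-sugars, fell at 12 weeks (-0.62, limma adjusted p = 0.0262) and at 20 weeks (-0.68, 0.00739). The mean of its probe sets differed by -0.24 at 20 weeks (limma adjusted p = 0.171), the 20-week call was lost with only the groups compared (0.0520), and the 12-week call was lost after further quantile normalisation (0.0671). Between 12 and 6 weeks in HOXB4 cells Nudt16l1, a relative of the Nudix hydrolases, rose by 0.88 (limma adjusted p = 0.0399), a call lost with only the groups compared (0.153) and with replicate number as a block (0.0570).

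Around Tnfsf13, 23 of 29 listed ligands, receptors and partners of APRIL and its relative BAFF were measured, with medians of 0.10 at 12 weeks and 0.06 at 20 weeks. Among the ligands, Tnfsf11, which encodes RANKL, had 5.12, 5.13 and 4.64 in HOXB4 cells, against 3.15, 2.76 and 3.10 in GFP cells at 12 weeks. It rose at 12 weeks (1.96 ± 0.40, limma adjusted p = 0.0142) and at 20 weeks (1.77 ± 0.40, 0.0108). The mean of its probe sets differed less, by 1.10 at 12 weeks (limma adjusted p = 0.0161) and 0.92 at 20 weeks (0.0201), and the 20-week call was lost with only the groups compared (0.105). Tnfsf10, which encodes TRAIL, differed by 1.22 ± 0.19 at 20 weeks (limma adjusted p = 0.000899). Its GFP mean fell from 7.42 at 12 weeks to 6.63 at 20 weeks (-0.79, limma adjusted p = 0.0432). The HOXB4 means of Tnfsf10 were 7.32, 7.60 and 7.85 at 6, 12 and 20 weeks. Tnfsf13b, which encodes BAFF, differed by 0.26 at 12 weeks (limma adjusted p = 0.369) and 0.06 at 20 weeks (0.856). Tnfsf12 was not analysed here.

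Among the receptors and binding partners of APRIL, Sdc4, a heparan sulfate proteoglycan of the syndecan family, which can bind APRIL through its sugar chains, had 8.89, 8.41 and 8.87 in HOXB4 cells, against 5.46, 5.26 and 4.99 in GFP cells at 12 weeks. At 20 weeks it had 9.55, 8.43 and 8.70 in HOXB4 cells, against 5.91, 5.18 and 7.10 in GFP cells, again without overlap. It rose by 3.49 ± 0.60 at 12 weeks (limma adjusted p = 0.00641) and by 2.83 ± 0.60 at 20 weeks (0.00799). The receptors did not pass the test at either time. Tnfrsf13b, which encodes TACI, differed by -0.08 at 12 weeks (limma adjusted p = 0.784) and -0.34 at 20 weeks (0.122). Tnfrsf17, which encodes BCMA, differed by 0.25 (0.520) and 0.14 (0.743), and Tnfrsf13c, the BAFF receptor, by -0.58 (0.312) and -0.19 (0.774). Tnfrsf13b rose between 12 and 6 weeks in HOXB4 cells, by 0.73 ± 0.13 (limma adjusted p = 0.0190; 0.0838 with only the groups compared).

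The calls of pathway genes depended on which arrays were fitted. Leaving out any 1 of the 6 arrays of 12 weeks left 2 to 4 of the 9 calls of that time in number, with 2 without HOXB4 12-week replicate 1; the adjusted p stayed under 0.05 in all 6 such fits for Sdc4 (at most 0.0386) and Pfkp (at most 0.0437). At 20 weeks the count was 8 to 13, and Sdc4 missed the threshold without GFP 20-week replicate 2 (0.0514) and Tnfsf11 without GFP 20-week replicate 1 (0.0543) or 2 (0.0644). In HOXB4 cells at 12 against 6 weeks the 3 calls of 92 (3.26%) became 0 without HOXB4 12-week replicate 2 or 3, 1 without HOXB4 12-week replicate 1 or HOXB4 6-week replicate 1, and 8 without HOXB4 6-week replicate 2.

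Markers of other blood cells moved in the same comparisons. Of all genes, 2.2% were called lower and 1.82% higher in HOXB4 cells at 12 weeks. At 20 weeks the shares were 5.18% lower and 3.77% higher. Of 15 measured markers of granulocyte-monocyte progenitors, the early cells of the neutrophil and monocyte lines, 8 fell at 12 weeks and 13 at 20 weeks in HOXB4 cells, with medians of -1.27 and -2.69. The mean level of this list ran from 8.58 to 8.81 in HOXB4 cells, against 9.87 to 9.96 in GFP cells of 12 weeks. At 20 weeks it ran from 7.99 to 8.57 in HOXB4 cells, against 10.07 to 10.73 in GFP cells. At 6 weeks it ran from 8.81 to 9.54 in HOXB4 cells. Of 15 measured mature neutrophil markers, 1 rose and 1 fell at 12 weeks, with a median of 1.11, and 12 fell at 20 weeks, with a median of -2.65. Their mean level ran from 6.88 to 7.39 in HOXB4 cells, against 6.14 to 6.64 in GFP cells of 12 weeks. At 20 weeks it ran from 5.87 to 6.73 in HOXB4 cells, against 8.50 to 8.60 in GFP cells. At 6 weeks it ran from 5.05 to 6.46 in HOXB4 cells. In GFP cells at 20 against 12 weeks 10 of these 15 neutrophil markers rose, with a median of 2.81, and 2 of the 15 progenitor markers rose, with a median of 0.40. In that comparison 406 (2.37%) of all genes were called in either direction, among them 7 of 14 monocyte and macrophage markers, all higher (median of the list 1.04), 4 of 10 megakaryocyte markers, all lower (median -0.90), and 2 of 9 LSK markers, both lower (median -0.74).

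Monocyte and macrophage markers fell for 3 of 14 measured at 12 weeks and 9 of 14 at 20 weeks (medians -0.46 and -1.50), with mean levels of 6.13 to 6.43 in HOXB4 cells and 7.81 to 7.86 in GFP cells at 20 weeks. Eosinophil markers fell for 2 of 6 at 12 weeks and 3 of 6 at 20 weeks (medians -1.47 and -1.56), with mean levels of 4.72 to 6.26 in HOXB4 cells and 6.45 to 7.36 in GFP cells at 20 weeks. B cell markers rose for 10 of 11 at 12 weeks and 3 of 11 at 20 weeks (medians 3.33 and 2.03). Megakaryocyte markers rose for 2 of 10 at 12 weeks and 5 of 10 at 20 weeks (medians 0.25 and 1.04). The other 6 lists, of LSK, depleted lineage, mast cell and basophil, T and NK, erythroid and dendritic markers, had medians between -0.29 and 0.26 at 12 weeks and between -0.13 and 0.46 at 20 weeks. In the LSK list 2 of 9 measured markers fell at 12 weeks, Cd34 (-0.75, limma adjusted p = 0.00731) and Kit (-0.63, 0.0140), and 3 of 9 rose at 20 weeks (Gata2 by 1.35, Flt3 by 1.41 and Slamf1 by 1.80). Of 5 measured lineage antigens Itgam fell at 20 weeks (-1.59, limma adjusted p = 0.00407) in HOXB4 against GFP cells, and it rose in GFP cells at 20 against 12 weeks (1.87, 0.00416). Mast cell and basophil markers moved both ways. Ms4a2, a subunit of the IgE receptor, rose at 12 weeks (2.04, limma adjusted p = 0.0133) and 20 weeks (3.45, 0.000104), and Cpa3, a mast cell protease, rose at 20 weeks (2.01, 0.00150). Mcpt8, a basophil protease, fell at 12 weeks (-1.58, limma adjusted p = 0.0303) and 20 weeks (-1.69, 0.0106), as did Hdc, which makes histamine (-1.46, 0.00294, and -0.94, 0.0114). Of 9 erythroid markers 1 rose, and of 8 dendritic markers 1 rose, both at 20 weeks, when 3.77% of all genes were called higher. The dendritic marker was Flt3, the same gene that is counted in the LSK list. The part of these cells in the values of the 5 genes was not tested.

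**Figure D3:**
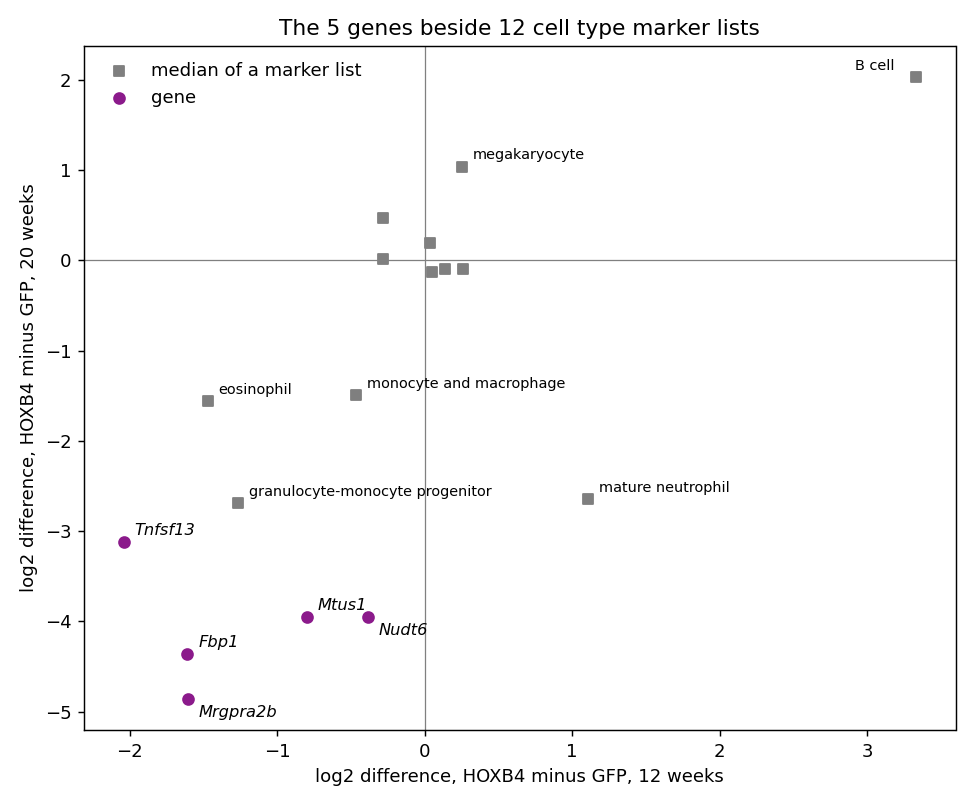
Log2 difference between HOXB4 and GFP cells at 12 weeks (horizontal axis) and 20 weeks (vertical axis) for the 5 genes (purple circles) and the medians of 12 cell type marker lists (grey squares; 6 are named). Granulocyte-monocyte progenitor markers lie at -1.27 and -2.69 and mature neutrophil markers at 1.11 and -2.65, while the 5 genes lie between -0.39 and -2.04 on the horizontal and below -3 on the vertical axis. The 20-week difference chose the 5 genes, so their low place on the vertical axis was fixed in advance. Single genes are set beside medians of lists, and single markers spread around their median.

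The genes with the levels most like each member were listed too. Correlations (Pearson's r) over arrays are given as a description, since the arrays share groups, normalisation and amounts of cell types. The genes named are the highest among all genes compared. With 9 arrays, high values can arise by chance among so many genes, and how many would was not tested. Over 15 arrays the values also carry the 20-week difference that chose the members. Over the 9 arrays that are not of 20 weeks, Fbp1 and Tnfsf13 correlated at 0.91 and Mrgpra2b and Fbp1 at 0.82, whereas Nudt6 correlated with the other 4 at 0.17 to 0.42. Over all 15 arrays the genes most like Mrgpra2b were Gsr (0.987), Igsf6 (0.975), Ap3s1 (0.972), Dmkn (0.970) and Alas1 (0.968). Igsf6 is on the granulocyte-monocyte progenitor marker list. Those most like Fbp1 were Dmkn (0.977), Cebpd (0.976), Gsr (0.975), Sgms2 (0.973) and Fstl3 (0.969). Gsr, which encodes glutathione reductase, and Dmkn were also among the 5 most like Mtus1, with Dstn, Gda and Fbp1 itself.

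Nudt6 was most like Ms4a4c (0.979), Sycp3 (0.969), Lyst (0.968), Hsd11b1 (0.958) and Lrg1 (0.957), and Tnfsf13 was most like Kcnip3, Gstm1 (0.975), Aldoa (0.969), Chst13 (0.967) and Hvcn1 (0.965). Over the 9 arrays without the 20-week groups these names changed for most genes. Mrgpra2b was then most like Olr1 (0.979), Ms4a3 (0.977), Ctsg (0.971), Sdf2l1 (0.965) and Ap3s1 (0.961), of which Ms4a3 and Ctsg, the gene of cathepsin G, are on the progenitor marker list. Fbp1 was most like Aldoa (0.977), Tbc1d13 (0.974), Alcam (0.968), Rassf4 (0.967) and Agps (0.964). Mtus1 was most like Sf3b3 (0.950), Tnfaip2 (0.944), Zfp619 (0.935), Rapgef2 (0.933) and Siglecf (0.932), of which Siglecf is on the eosinophil marker list. Nudt6 was most like Tha1 (0.955), Ntpcr (0.942), Dennd4c (0.933), Iars2 (0.927) and Chd1l (0.916). Tnfsf13 was most like Pdk3 (0.992), Prg2 (0.985), Nt5dc2, P2ry2 (0.975) and Spr (0.973), of which Prg2, an eosinophil granule protein, is on the eosinophil marker list.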

How the data were processed

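Expression was measured on 15 microarrays, with 20 ng of total RNA per array amplified with NuGEN reagents, per the labels' protocols. The deposited values are log2 signals of probe sets. Per the submitters' processing notes, the authors made them in Partek 6.5 with RMA; filters on probes are not given in the sources used here. Of 45141 probe sets, 28898 had 1 symbol in the platform annotation, 551 had several and 15692 were not listed; symbols were updated by gene identifier for 28689, against GRCm38.p6. A probe set with several symbols that include Tnfsf13 was not used. Each of 17097 genes was tested through its brightest probe set by mean signal, with all probe sets as an alternative. A linear model of all 15 arrays, 1 coefficient for each group, was fitted in limma 3.58.1 (lmFit and eBayes, R 4.3.3; 10 residual degrees of freedom). A call was a two-sided p under 0.05 after Benjamini-Hochberg adjustment over all genes. An exact two-sided permutation test of 3 arrays against 3 cannot go below 0.1, so p-values rest on this model. The number of arrays limits the precision. The members and lists were chosen with earlier results of these data known, and lists of genes are given by counts and medians. All members are named; from each pathway list the called genes with the smallest p were named, up to 4 per comparison, with fixed paralogs and partners, and the 5 genes most correlated with each member, leaving out predicted genes, sensory receptors of smell and small RNAs. Promoter motifs were searched with Python 3.11.15, and figures were drawn with matplotlib 3.10.9.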

Additional observations from a re-analysis of the deposited data

How the results depend on the processing

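The results were recomputed with only the groups compared, the brightest 2 in 3 genes, the full set of probe sets, probe sets averaged per gene, further quantile normalisation, centring of arrays, array weights, a variance trend with robust moderation, a block for replicate number and 1 array left out. Mrgpra2b and Fbp1 stayed called at 12 weeks in all 9 of these settings other than leaving out arrays, with adjusted p from 0.000352 to 0.024 for Mrgpra2b and from 9.33e-05 to 0.0313 for Fbp1. The number of members called there was 3 with only the groups compared and with array weights, and 0 to 1 with 1 array left out; at 12 against 6 weeks it was 0 in each such fit. Pathway list genes called at 12 weeks numbered 20 with only the groups compared, 14 with array weights and 2 to 4 with 1 array left out. At 20 weeks they numbered 7 with only the groups compared and 8 to 13 with 1 array left out. At 12 against 6 weeks in HOXB4 cells they numbered 0 with only the groups compared, 5 with array weights and 0 to 8 with 1 array left out. For the difference between the effects they numbered 1 with only the groups compared, 1 with array weights, and 0 with 1 array left out. The difference of Tnfsf13 between 12 and 6 weeks turned to -0.18 with array weights. It was -0.02 without HOXB4 6-week replicate 1 and -0.15 without HOXB4 6-week replicate 3. That of Nudt6 turned to 0.033 without HOXB4 6-week replicate 1. Over the fits without 1 array the ranges were -0.15 to 0.50 for Tnfsf13 and -0.371 to 0.033 for Nudt6. Fits that leave 1 array out have fewer arrays, and the causes of these changes of sign were not tested. With replicate number as a block, members called were 2 at 12 weeks and 0 at 12 against 6 weeks, and pathway genes called were 9 at 12 weeks, 10 at 20 weeks, 2 at 12 against 6 weeks and 0 for the difference. Same-numbered arrays deviated together at r of 0.04 to 0.06 at 12 weeks, -0.03 to 0.04 at 20 weeks and -0.13 to -0.08 for 12 and 6 weeks, so the numbers were not taken to pair the arrays. Low signals without detection calls limit what can be said of a fall below the lowest levels.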
